A study of Rattus norvegicus with 47 samples.

Results

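Cyp26a1 and Cyp26b1 encode 2 of the retinoic acid (RA) hydroxylases of the cytochrome P450 family CYP26, and their transcripts were followed here in rat liver across diets and RA doses. The members were the probe sets whose only gene symbol was Cyp26a1 or Cyp26b1, 3 of 31099 on the array, for 2 of 14217 named genes. Cyp26a1 had 1 probe set (1387583_at). Cyp26b1 had 2, of which 1384392_at had the higher mean signal and represents the gene, and 1376667_at is given beside it. That mean was taken over all arrays, those after RA included, so the choice was not independent of the changes after RA.

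The arrays measured liver RNA of female Sprague-Dawley rats of 8 weeks, 1 rat on each of 47 single-colour Affymetrix arrays, in 3 experiments with 13 groups. In the diet experiment rats ate purified feed from weaning with retinol at 0 mg/kg in 5 deficient, 0.4 mg/kg in 7 marginal, 4 mg/kg in 6 adequate and 100 mg/kg in 2 supplemented rats. In the RA time course all rats were vitamin A-deficient, the controls too, and were given either vehicle (3 arrays, 0 h) or all-trans-RA, about 100 µg each, with livers taken after 3 h (3 arrays), 6 h (3), 10 h (4) or 16 h (3). In the intravenous experiment all rats had a stock diet and a fast of 16 h, an interval that the notes count from a step called priming. Under light isoflurane they received oil and ethanol vehicle (2 arrays, 0 min) or about 25 µg of RA into an iliac vein (a dose of 10 µg per 100 g). After RA, livers were taken at 30, 60 or 90 min (3 arrays each). In the titles the controls of both RA experiments are untreated, but the treatment notes give vehicle. A control rat killed at time 0 does not share the handling time of the RA rats. Doses, diets and times differ between the RA experiments, so their values are not compared.

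RA, the acid form of vitamin A, acts through RA receptors that pair with retinoid X receptors on response elements, which are repeated copies of a short half-site. CYP26 enzymes hydroxylate RA and so start its removal, and their genes are in turn switched on by RA. CYP26A1 is the family member best known from adult liver, while CYP26B1 is best known from developing limb, gonad and blood vessels.

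Because the transcripts were measured under RA, the start-proximal sequence of both genes was searched for such repeats. The sequences are the 250 bases before the transcription start in RefSeq's GRCr8 assembly, 5′ to 3′ on the gene's strand, at chr1:244883572-244883821 (plus strand) for Cyp26a1 and chr4:118616177-118616426 (minus strand) for Cyp26b1. Capitals mark the half-sites of a matching direct repeat.
Cyp26a1: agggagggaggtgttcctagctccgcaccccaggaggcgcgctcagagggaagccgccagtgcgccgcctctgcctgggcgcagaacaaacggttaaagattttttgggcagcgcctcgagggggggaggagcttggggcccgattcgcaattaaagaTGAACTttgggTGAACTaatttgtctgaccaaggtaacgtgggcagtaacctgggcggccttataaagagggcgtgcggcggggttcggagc
Cyp26b1: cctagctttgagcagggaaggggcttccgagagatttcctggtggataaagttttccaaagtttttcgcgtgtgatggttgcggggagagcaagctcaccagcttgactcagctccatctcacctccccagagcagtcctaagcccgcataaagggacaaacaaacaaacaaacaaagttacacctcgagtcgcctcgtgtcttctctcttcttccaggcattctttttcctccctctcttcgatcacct
A match was 1 of 4 half-sites of 6 bases (AGGTCA, the variant AGTTCA, the variant GGGTCA and the variant GGTTCA) followed on the same strand, after 1, 2 or 5 bases, by another of them, with both strands searched from 250 bases before to 50 after the start. Cyp26a1 held 1 match, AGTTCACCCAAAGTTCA, with a spacer of 5 bases, on the strand opposite to the gene from base -92 to -76. No match of these letters lay in the Cyp26b1 window. Of 33469 such windows, 128 (0.382%) held a repeat with the 5-base spacer, 78 (0.233%) with 1 base, 57 (0.17%) with 2 bases, and 260 (0.777%) held any of the 3. Among 54 genes with a window, from the list of retinoid genes counted below, the other match was that of Rarb, an RA receptor gene (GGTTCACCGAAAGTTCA, from base 24 to 40 after the start). That list was not made for this search. It was chosen with earlier results of these data known and includes genes listed as RA receptor targets, so it is no unbiased set. A match is a description of letters, and binding was not measured.

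Values are deposited log2 signals, each relative to the median of its array, so 0 is the median probe set. Changes are differences of these values with standard errors (SE) from limma, group means carry standard deviations (SD), and calls are made where the Benjamini-Hochberg adjusted p, taken over every probe set of the comparison, is under 0.05. Levels of different probe sets are not compared.

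Some arrays stood apart or went against their labels. In the diet experiment 4 arrays (deficient replicates 1, 2 and 5, adequate replicate 5) had a median correlation of 0.786 to 0.817 with the others, against 0.833 to 0.861 for the other 16. In the time course 16 h replicates 1 and 2 had 0.676 to 0.726, against 0.769 to 0.814. In the intravenous experiment the library labelled vehicle replicate 1 had signals of -4.82 to -2.04 on the 4 probe sets of Xist, the RNA of the inactive X chromosome, against 4.40 to 6.66 on the other 10 arrays, although all rats were labelled female. Its signal of the female-typical liver P450 Cyp2c12 was 7.68, within the range of 7.37 to 9.44 over all 47 arrays. In the time course the library labelled vehicle replicate 2 had 7.11 for Cyp2c22, a P450 that was low in deficient livers, and 2.62 for Lrat, the retinol-esterifying enzyme, while the other vehicle arrays had 2.54 and 2.83 for Cyp2c22 and -0.38 and -4.18 for Lrat. Hepatocyte markers such as Alb (median signal 9.15) and Apob (8.30) were among the highest probe sets. The median change of all probe sets ran from -0.42 (16 h against 3 h) to 0.16 (supplemented against deficient), and quantile normalization brought it to -0.06 and 0.05. Over 9 measured hepatocyte markers the group means lay between 7.28 and 7.98.

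In the diet experiment, Cyp26a1 followed the retinol in the feed, with the lowest mean in deficient and the highest in supplemented livers. The deficient arrays had signals of -1.24, -1.46, -3.32, -1.43 and -0.43, of which -3.32 was the floor of its array. The marginal arrays ran from -0.97 through a median of -0.36 to 0.76, and the adequate arrays from 0.08 through 0.22 to 1.26. The supplemented arrays had 4.28 and 5.24. All 5 deficient arrays lay below the lowest adequate array, marginal arrays overlapped both neighbours, and the supplemented arrays lay above every other array of the experiment.

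Deficient livers had Cyp26a1 lower than adequate livers by limma (log2 change -1.94 ± 0.46 SE, 95% interval -2.87 to -1.01, adjusted p = 0.0255), in a comparison that called 1.08% of 27595 probe sets. The call is lost without adequate replicate 1 (-1.68, adjusted p = 0.144) or adequate replicate 2 (-1.92, adjusted p = 0.0849), without the intensity trend (adjusted p = 0.0832), and within either run of database identifiers (-1.09 and -2.84 log2, adjusted p = 0.556 and 0.0849). Without the arrays that stood apart, 3 of the 5 deficient ones among them, the change was -2.81 and called (adjusted p = 0.0149). The deficient group was then replicates 3 and 4 alone, and the signal of replicate 3 (-3.32) was the floor of its array and so only a bound. The deficient group also had a lower mean over 7 sinusoidal endothelial markers, 2.48 (arrays 2.05 to 3.12) against 2.92 (2.23 to 3.16), and over 8 Kupffer markers, 3.30 (2.48 to 4.39) against 3.70 (3.30 to 4.07). The log2 summed signals of the endothelial list were 5.48 to 6.71 and 5.54 to 6.66, and those of the Kupffer list were 5.76 to 7.77 and 6.71 to 7.46. Their part in the change was not tested, and in whole liver RNA fewer cells of a type and less RNA per cell cannot be told apart.

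Marginal livers had a Cyp26a1 change of -0.52 ± 0.41 against adequate ones (95% interval -1.36 to 0.32, adjusted p = 1). That comparison called 0% of the probe sets with limma, with 916 at an unadjusted p under 0.05, 0 without the trend and 1 within the second run alone. Against deficient livers the marginal change was 1.42 ± 0.44 (adjusted p = 0.0893), where 1.69% of probe sets were called. Thus only the supplemented group stood clear of its neighbour in the order of levels, and the steps from deficient to marginal and from marginal to adequate were not called.

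Supplemented livers had 20.5-fold more Cyp26a1 signal than adequate ones (log2 change 4.35 ± 0.62, 95% interval 3.10 to 5.61, adjusted p = 0.000729). It was the largest rise of all 27595 probe sets, in a comparison that called 0.0109% of them. The supplemented group had 2 arrays, both in the first run of identifiers, and without supplemented replicate 2 the change was 3.87 (adjusted p = 0.136), with the remaining array assumed to vary like the other groups. Against deficient livers Cyp26a1 rose by 6.30 ± 0.65 (adjusted p = 2.57e-07), second in size to Sult1c3, a sulfotransferase (7.80), with 0.42% of probe sets called.

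Over both runs together, Cyp26b1 had the same order of group means over the diets, with wider spread. The deficient arrays had signals of -2.69, -1.20, -0.71, -3.67 and -3.03. The marginal arrays ran from -3.67 through -1.43 to -0.28, and the adequate arrays from -3.16 through -0.12 to 0.48. The supplemented arrays had 0.75 and 2.01, above all adequate and deficient arrays, while the other 3 groups overlapped.

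No diet comparison called Cyp26b1. Its change was -1.59 ± 0.80 in deficient livers (95% interval -3.22 to 0.05, adjusted p = 0.409), -1.33 ± 0.72 in marginal livers (-2.80 to 0.14, adjusted p = 1) and 1.79 ± 1.08 in supplemented livers (-0.41 to 3.98, adjusted p = 1), each against adequate. Supplemented against deficient gave 3.37 ± 1.15 (1.04 to 5.71, adjusted p = 0.303), and marginal against deficient 0.25 ± 0.77 (-1.30 to 1.81, adjusted p = 0.918). Within the first run the deficient change was -3.24 (adjusted p = 0.211), while in the second run Cyp26b1 did not pass the filter. Its second-run signals were -2.69, -1.20 and -0.71 in deficient and -3.56, -3.09 and -1.43 in marginal livers. The adequate arrays of that run had -3.16 and 0.26, and the marginal signal of -3.56 was the floor of its array. In that run the deficient arrays thus did not lie lowest. Over both runs, leaving out 1 array gave -1.03 (deficient replicate 4) to -2.25 (adequate replicate 1) for the deficient change. The supplemented change then ran from 1.16 (without supplemented replicate 2) to 2.41 (without supplemented replicate 1). The second probe set ran from -2.82 to -2.02 in deficient, -3.60 to 0.08 in marginal, -2.82 to 0.07 in adequate and -1.57 to 0.32 in supplemented livers, and was not called either.

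**Figure D1:**
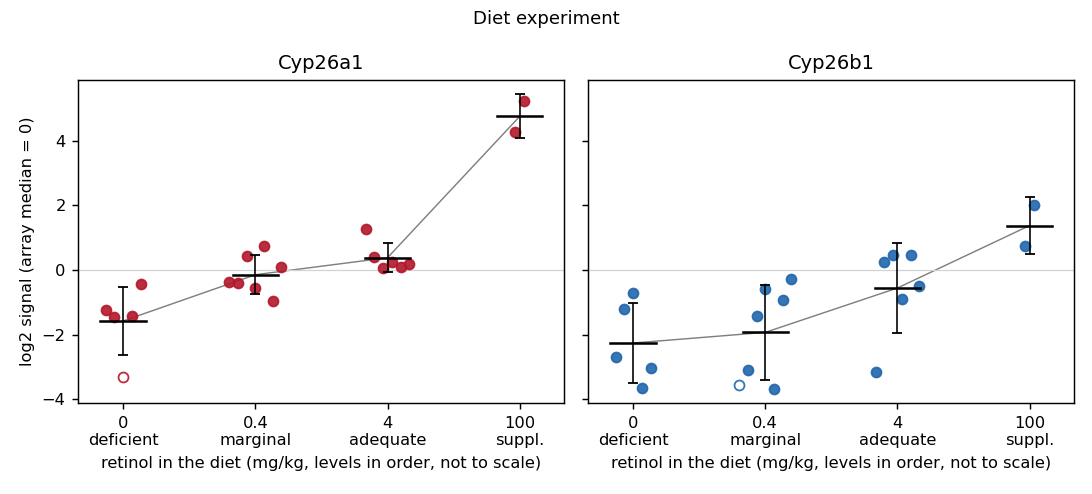
Log2 signal of Cyp26a1 (left) and Cyp26b1 (right) on each array of the diet experiment, by retinol in the feed (mg/kg, spaced evenly). Points are arrays, open points lie at the floor of their array, black lines are group means with SD; the supplemented arrays reach 4.28 and 5.24 for Cyp26a1 and 0.75 and 2.01 for Cyp26b1.

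After RA in deficient rats, Cyp26a1 rose within 3 h, had its highest mean at 6 h and had a mean of 4.04 at 10 h. The vehicle arrays had signals of -0.89, -1.14 and -4.73. At 3 h the signals were 4.03, 3.50 and 4.60, and at 6 h they were 6.52, 6.27 and 6.45, the narrowest group of all. At 10 h they were 3.40, 5.44, 3.90 and 3.41, and at 16 h they were 0.38, -2.71 and 4.16. All arrays of 3, 6 and 10 h lay above every vehicle array, the 6 h arrays lay above all others, and the 16 h arrays spread from the vehicle range to the 10 h range.

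Cyp26a1 was the largest rise of 28869 probe sets at each of 3, 6 and 10 h. The log2 change against vehicle was 6.30 ± 0.94 at 3 h (95% interval 4.37 to 8.22, adjusted p = 0.0022, with 0.0762% of probe sets called) and 8.67 ± 0.94 at 6 h, or 407-fold (6.75 to 10.59, adjusted p = 9.63e-06, 0.201% called). At 10 h it was 6.29 ± 0.88 (4.49 to 8.09, adjusted p = 0.000242, 0.488% called). These calls held with each array left out in turn, but not without the intensity trend (adjusted p = 0.64, 0.0962 and 0.224). The folds rest on vehicle signals at percentiles 34.7, 31.1 and 3.3 of their arrays. That of vehicle replicate 3 lay 0.585 log2 above the floor of its array, so the folds are uncertain in size. Without vehicle replicate 3 the changes were 5.06, 7.43 and 5.05 log2. Without vehicle replicate 2, the array high in Cyp2c22 and Lrat, they were 6.85, 9.23 and 6.85.

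Between times, the Cyp26a1 change was 2.37 ± 0.94 from 3 to 6 h (adjusted p = 1, with 0.0208% of probe sets called). From 6 to 10 h it was -2.38 ± 0.88 (adjusted p = 0.553, with 0.135% called), although the 4 arrays of 10 h all lay below the 3 of 6 h. Neither step was called with all arrays, but without 16 h replicates 1 and 2 and with an unchanged value, the step from 6 to 10 h was (adjusted p = 0.0469).

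At 16 h Cyp26a1 was 2.86 ± 0.94 above vehicle (95% interval 0.94 to 4.79, adjusted p = 0.0643), in a comparison with 6.11% of probe sets called, most of them (1701 against 64) in the lower direction, a split that quantile normalization changed to 212 against 111. Against 10 h the change was -3.43 ± 0.88 (adjusted p = 0.057, with 0.807% called), and against 3 h it was -3.43 ± 0.94 (adjusted p = 0.0215, with 8.7% called). Replicates 1 and 2, the arrays that stood apart, had the low signals of 0.38 and -2.71, and replicate 3 had 4.16. Without replicates 1 and 2 the 16 h value rests on 1 array, assumed to vary like the other groups. The changes were then 6.41 against vehicle (adjusted p = 0.000183), 0.12 against 10 h (adjusted p = 0.98) and 0.12 against 3 h (adjusted p = 0.982), so the fall from 3 h ended. That call was also lost without 16 h replicate 1, 16 h replicate 2 (-1.78), 3 h replicate 1 or 3 h replicate 3, after quantile normalization (-3.14, adjusted p = 0.128) and without the trend (adjusted p = 0.2). The 16 h change against vehicle was called without 16 h replicate 2 (4.52) or vehicle replicate 1 (3.54), and the change from 10 h without 16 h replicate 3 (-5.21) or any 1 vehicle array. The median of all probe sets was shifted by -0.39 at 16 h against vehicle, and beside it the mean over 14 stellate markers was 0.47 (-0.02 to 0.74) against 1.11 (0.56 to 1.62). That over 7 sinusoidal endothelial markers was 2.00 (1.43 to 2.57) against 2.99 (2.61 to 3.27), and that over 8 Kupffer markers 2.89 (2.62 to 3.23) against 3.68 (3.53 to 3.77), so the array means of the endothelial and Kupffer lists did not overlap between 16 h and vehicle, while those of the stellate list did. Log2 summed signals were 5.26 to 5.92 against 6.42 to 6.88 for the stellate list, 5.84 to 6.30 against 6.09 to 6.84 for the endothelial list and 6.09 to 6.65 against 6.96 to 7.28 for the Kupffer list. At 10 h, where both members were called higher, the Kupffer mean was 3.16 (2.88 to 3.53), the endothelial mean 2.65 (2.45 to 2.92) and the stellate mean 0.79 (0.49 to 1.02), with log2 summed signals of 6.28 to 7.02, 6.20 to 6.70 and 5.87 to 6.40. Their part in the results was not tested.

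Cyp26b1 rose in the same experiment but had its highest mean at 10 h. The vehicle arrays had signals of -4.57, 0.84 and -0.28. At 3 h the signals were 1.54, 2.05 and 2.47, and at 6 h they were 4.61, 3.27 and 4.17. At 10 h they were 4.65, 5.38, 4.72 and 4.85, all above the 6 h arrays, and at 16 h they were 1.30, -0.19 and 3.41. All arrays of 3, 6 and 10 h lay above every vehicle array, and the 16 h arrays overlapped vehicle.

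Cyp26b1 was second in size only to Cyp26a1 at 6 h (5.35 ± 0.79, 95% interval 3.73 to 6.97, 40.8-fold, adjusted p = 0.000613) and at 10 h (6.23 ± 0.74, 4.72 to 7.75, 75.3-fold, adjusted p = 2.93e-05). At 3 h the change was 3.36 ± 0.79 (1.74 to 4.97, adjusted p = 0.145) and was not called. At 16 h it was 2.84 ± 0.79 (1.22 to 4.46, adjusted p = 0.0316). The 3 h change was called without vehicle replicate 2 (4.44, adjusted p = 0.00374) and without the arrays that stood apart (3.36, adjusted p = 0.0357). The 16 h call was lost without 16 h replicate 1 or 3, or vehicle replicate 1 (1.23) or 3, and after quantile normalization (3.02, adjusted p = 0.0761). Vehicle replicate 1, with a signal of -4.57, lay at percentile 2.8 of its array and 1.20 log2 above its floor. Without it the changes at 6 and 10 h were 3.74 and 4.62. Without vehicle replicate 2 those at 6, 10 and 16 h were 6.44, 7.32 and 3.93, all called. Without the intensity trend none of the 6, 10 and 16 h changes was called (adjusted p = 0.313, 0.139 and 0.228).

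From 3 to 6 h the Cyp26b1 change was 2.00 ± 0.79 (adjusted p = 1), and from 6 to 10 h it was 0.88 ± 0.74 (95% interval -0.63 to 2.40, adjusted p = 0.889). From 10 to 16 h Cyp26b1 fell, with a log2 change of -3.39 ± 0.74 (adjusted p = 0.02), a call that was lost without 16 h replicates 1 and 2 (-1.49, adjusted p = 0.833) and without the trend (adjusted p = 0.272). Leaving out 10 h replicate 1, 2 or 4, or 16 h replicate 1 or 2, also ended it. From 3 to 16 h the change was -0.51 ± 0.79 (adjusted p = 0.765).

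**Figure D2:**
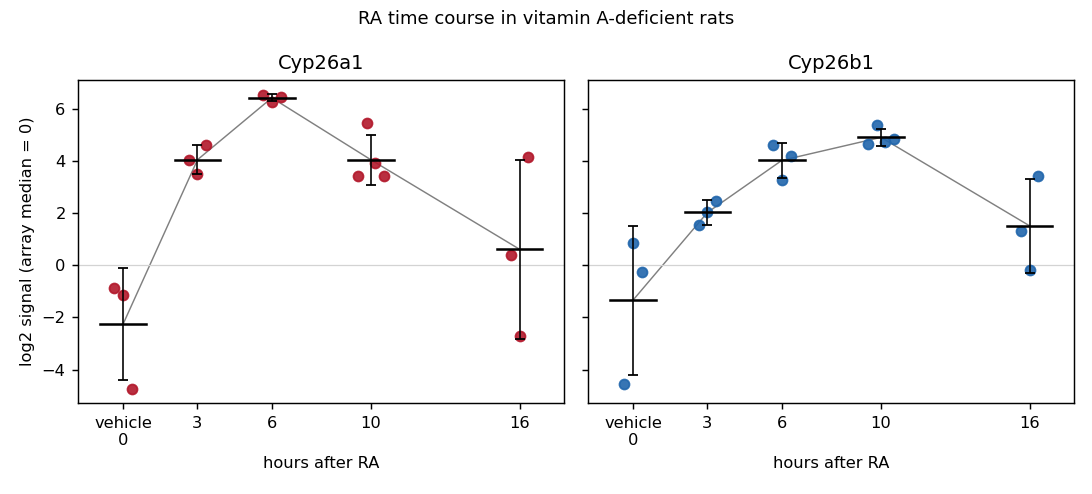
Log2 signal of Cyp26a1 (left) and Cyp26b1 (right) on each array of the RA time course, by hours after RA in vitamin A-deficient rats. Points are arrays and black lines are group means with SD; the highest mean is at 6 h for Cyp26a1 (6.42) and at 10 h for Cyp26b1 (4.90), and the 16 h arrays are widely spread.

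The second Cyp26b1 probe set had smaller changes in this experiment, none of them called. Its signals were -2.60, -1.09 and -3.51 with vehicle, -2.40, -0.72 and 0.58 at 3 h, and 0.55, 0.06 and 0.79 at 6 h. At 10 h they were 1.54, 0.97, -2.36 and -0.20, and at 16 h they were -2.05, -3.37 and 1.10. Its changes were 2.86 ± 1.16 at 6 h (adjusted p = 0.792) and 2.39 ± 1.08 at 10 h (adjusted p = 0.48), not called. Over the series it lay above the array median on 15 of 47 arrays. Whether both probe sets detect the same transcripts was not tested.

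After intravenous RA in rats on a stock diet, Cyp26a1 rose within the first hour. The vehicle arrays had signals of 0.30 and -2.24. At 30 min the signals were 2.32, 2.47 and 1.47, at 60 min they were 3.81, 4.57 and 5.01, and at 90 min they were 5.07, 4.07 and 4.79. Every RA array lay above both vehicle arrays, the 60 min arrays lay above the 30 min arrays, and the 60 and 90 min arrays overlapped.

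The Cyp26a1 change against vehicle was 3.05 ± 0.56 at 30 min (95% interval 1.86 to 4.25, adjusted p = 0.0693, with 0.0879% of 22763 probe sets called). It was 5.43 ± 0.56 at 60 min (4.24 to 6.63, 43.2-fold, adjusted p = 0.000817, 0.387% called) and 5.61 ± 0.56 at 90 min (4.42 to 6.81, 49.0-fold, adjusted p = 0.000149, 0.505% called). At 60 and 90 min only Cxcl1, a neutrophil chemokine gene, rose more (6.31 and 7.82 log2). The size depends on which vehicle array is used: without vehicle replicate 1, the array low in Xist, the changes were 4.32 (adjusted p = 0.00738), 6.70 and 6.88, so that 30 min was called too. The control is then 1 array at -2.24, assumed to vary like the other groups. Without vehicle replicate 2, with the same limit, they were 1.79, 4.17 and 4.35. The 60 min call was lost without the trend (adjusted p = 0.0576).

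From 30 to 60 min the Cyp26a1 change was 2.38 ± 0.50 (adjusted p = 0.14, with 0.0615% called). It passed when either vehicle array was left out, although no vehicle array enters its value. The 1 vehicle array that remained then added nothing to the estimate of the spread, so this does not bear on the step. From 60 to 90 min the Cyp26a1 change was 0.18 ± 0.50 (95% interval -0.89 to 1.25, adjusted p = 0.95, with 0.0966% called).

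Cyp26b1 also rose after intravenous RA, with little spread between arrays. The vehicle arrays had signals of 0.32 and -0.11. At 30 min the signals were 0.65, 1.10 and 0.69, at 60 min they were 3.23, 2.65 and 2.72, and at 90 min they were 3.37, 3.52 and 3.86. No group overlapped its neighbour.

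The Cyp26b1 change was 0.70 ± 0.23 at 30 min (95% interval 0.20 to 1.20, adjusted p = 0.378) and 2.76 ± 0.23 at 60 min (2.26 to 3.26, 6.78-fold, adjusted p = 0.000105). At 90 min it was 3.48 ± 0.23 (2.97 to 3.98, 11.1-fold, adjusted p = 4.6e-06). From 30 to 60 min it rose by 2.06 ± 0.21 (adjusted p = 0.00109), the smallest p of the 22763 probe sets tested, though not called without the trend (adjusted p = 0.078). From 60 to 90 min the change was 0.71 ± 0.21 (adjusted p = 0.276). The calls at 60 and 90 min held without either vehicle array, with values of 2.55 to 2.98 and 3.26 to 3.69 over all arrays left out in turn. The second probe set had -2.86 and -2.82 with vehicle and -3.32, -0.93 and 0.09 at 30 min. It had 0.21, -2.19 and -2.37 at 60 min and 0.71, 1.07 and 1.43 at 90 min, where its change was 3.91 ± 0.95 (adjusted p = 0.111). At 60 min its change was 1.39 ± 0.95 (adjusted p = 0.669), so the 60 min rise of Cyp26b1 rests on the representative probe set.

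**Figure D3:**
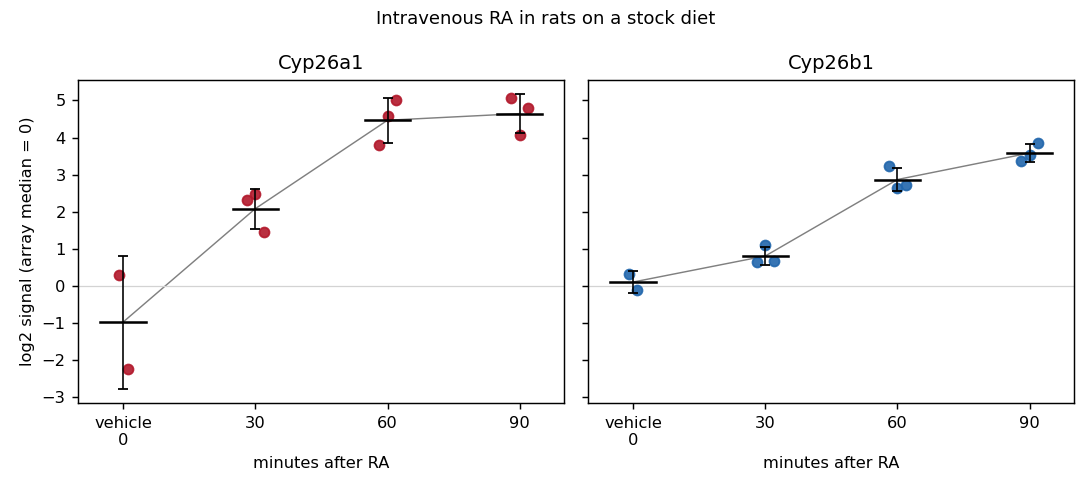
Log2 signal of Cyp26a1 (left) and Cyp26b1 (right) on each array of the intravenous experiment, by minutes after RA. Points are arrays and black lines are group means with SD; at 30 min Cyp26a1 had a mean of 2.08 and Cyp26b1 of 0.81, and at 90 min 4.64 and 3.58.

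**Figure D4:**
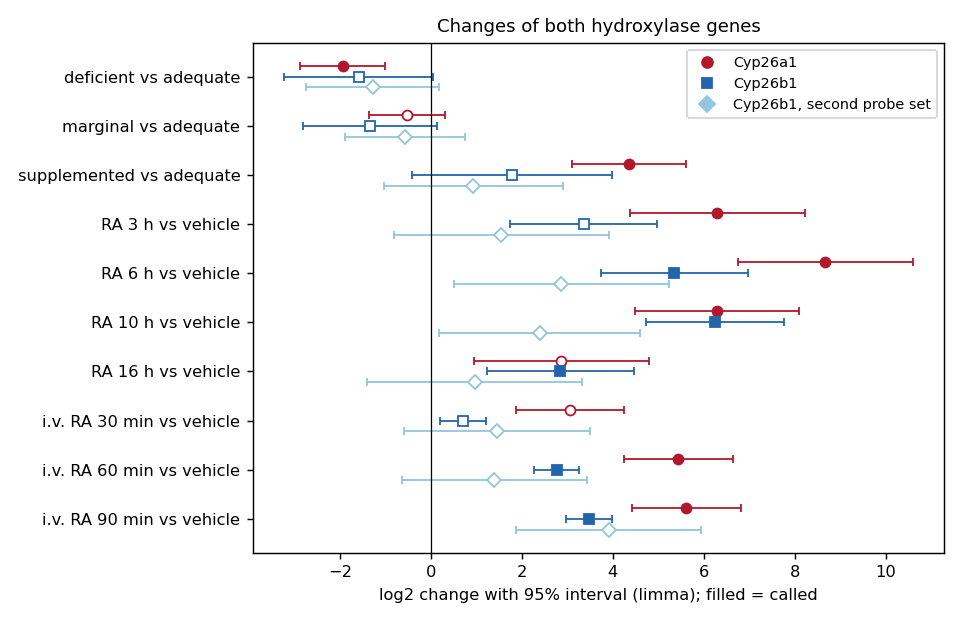
Log2 change with 95% interval from limma for Cyp26a1, Cyp26b1 and the second Cyp26b1 probe set in 10 comparisons with the reference group of each experiment (rows). Filled symbols are called; the widest change is 8.67 for Cyp26a1 at 6 h, and the second Cyp26b1 probe set is called in none of them.

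Whether the members changed by different amounts was tested on the per-array difference of Cyp26a1 and Cyp26b1, with exact two-sided permutation tests adjusted over 4 comparisons. The Cyp26a1 change exceeded that of Cyp26b1 by 2.44 log2 in supplemented against adequate livers (exact p = 0.143, adjusted p = 0.286). The excess was 1.47 over all RA times of the time course (exact p = 0.334, adjusted p = 0.445) and -0.25 in deficient against adequate livers (exact p = 0.842). In the intravenous experiment it was 2.39 (exact p = 0.0182, the smallest that 2 against 9 arrays allow, adjusted p = 0.0727). There the 9 RA arrays had differences of 0.56 to 2.29 and the vehicle arrays -2.13 and -0.03. Without vehicle replicate 1 the excess was 3.44 and without replicate 2 it was 1.34, but 1 vehicle array against 9 allows no exact p under 0.1, so these are values with no test. An unadjusted exact p under 0.05 also came without adequate replicate 1 in the supplemented comparison (3.14, exact p = 0.0476) and without vehicle replicate 1 in the time course (3.76, exact p = 0.019), while the time course excess was -0.30 without vehicle replicate 3. The deficient excess was 0.44 without adequate replicate 1 and 0.57 without deficient replicate 3. The permutation tests took no account of the run of database identifiers. Within the first run limma gave deficient changes of -1.09 for Cyp26a1 and -3.24 for Cyp26b1. The supplemented changes there, in the run that held both supplemented arrays, were 4.60 and 1.49. Within the second run the deficient change of Cyp26a1 was -2.84, while the Cyp26b1 signals of deficient and adequate arrays overlapped. The deficient excess thus pools runs that differed. After adjustment no comparison separated the members, which does not show that they respond alike.

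A further comparison was picked because the values differed. From 6 to 10 h the difference fell by 3.26 log2, from 1.91 to 3.01 on the 3 arrays of 6 h to -1.44 to 0.06 on the 4 arrays of 10 h. It is given as a description with no test. On the representative probe sets, all 10 h arrays lay below the 6 h arrays for Cyp26a1 and above them for Cyp26b1, while neither change was called on its own. The second Cyp26b1 probe set had a change of -0.48 from 6 to 10 h, in the other direction, and the mean over both Cyp26b1 probe sets gave 0.20.

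**Figure D5:**
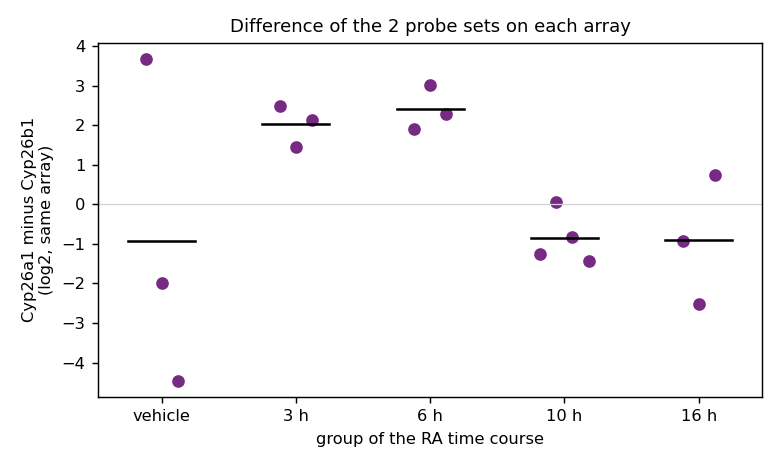
Cyp26a1 minus Cyp26b1 (log2) on each array of the RA time course, from the representative probe set of each gene, with group means as lines. The level of the difference has no meaning across probe sets; its position at 6 h (1.91 to 3.01) lies above that at 10 h (-1.44 to 0.06), and vehicle arrays are widely spread.

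The range of the group means within each experiment shows how far the members stood out from the array. Among 31042 probe sets, Cyp26a1 ranked 3 by this range in the diet experiment (6.34 log2), 1 in the time course (8.67) and 2 in the intravenous experiment (5.61). Cyp26b1 ranked 47 (3.64), 2 (6.23) and 45 (3.48).

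The genes whose pattern was most like the members were taken from 6974 genes by the Pearson correlation over the 13 group means, centred within each experiment, as a description with no test. Each member had the other as its most like gene (r = 0.91). Next to Cyp26a1 came Epha6, an ephrin receptor (0.91), Ccl24, a chemokine (0.91), and Cox6a2, a cytochrome oxidase subunit (0.89), with changes of 1.37, 3.99 and 3.02 at 6 h against 8.67 for Cyp26a1. Next to Cyp26b1 came Akr1b8, an aldo-keto reductase (0.88), Fxyd6 (0.85) and C3ar1, a complement receptor (0.85), and Lrat was in seventh place (0.85). The group means of an experiment come from the same arrays for every gene.

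Other genes of retinoid metabolism and signalling were counted from a list of 72 genes besides the members, of which 62 were tested (57 in the intravenous experiment). In deficient against adequate livers 0 were called higher and 6 lower by limma, beside 22 higher and 277 lower of all 27595 probe sets. The list's median change was -0.30 beside -0.11 over all probe sets. The largest were Cyp2c22, an RA-hydroxylating P450 (-4.57 ± 0.29, adjusted p = 6.54e-12), Cyp3a9 (-3.35 ± 0.25, adjusted p = 1.84e-10), Lrat (-2.89 ± 0.39, adjusted p = 2.72e-05) and Cyp2c7 (-1.38 ± 0.26, adjusted p = 0.00293). In marginal and in supplemented against adequate livers limma called 0 of the 62, with 3 and 5 at an unadjusted p under 0.05. Over all 27595 probe sets 0 and 3 were called, with 916 and 1003 at an unadjusted p under 0.05. So few calls over the whole array leave the absence of calls in the list uninformative. Cyp26a1 was called in the supplemented livers. Marginal against deficient livers had 6 higher, led by Cyp2c22 (4.22 ± 0.28), Cyp3a9 (2.83 ± 0.24) and Lrat (2.77 ± 0.37), and supplemented against deficient had 4, again led by Cyp2c22 (5.51 ± 0.42). Over all 27595 probe sets these comparisons called 442 and 97 higher.

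In the time course 4 of 62 were called higher at 3 h: Cyp2c22 (3.76 ± 0.60), the nuclear receptor gene Nr0b2 (2.69 ± 0.42), Rarb (1.78 ± 0.29) and Dhrs3, which reduces retinaldehyde (1.59 ± 0.25). At 6 h 5 were higher, with Lrat (3.95 ± 0.82) joining them. At 10 h limma called 2 higher, Cyp2c22 (4.61, adjusted p = 2.93e-05) and Lrat (4.32, adjusted p = 0.00439), and 1 lower. By size of rise Cyp2c22 and Lrat ranked 4 and 5 of all 28869 probe sets at 10 h. At 16 h 3 were higher and 8 lower, with a list median of -0.46 beside -0.39 over all probe sets. Among the 28869 probe sets tested, 21, 34, 31 and 64 were called higher at 3, 6, 10 and 16 h. Those called lower were 1, 24, 110 and 1701. At 10 h, where both members were called, Rarb (0.41 ± 0.27, adjusted p = 0.685) was not, nor was Dhrs3 (0.88 ± 0.23, adjusted p = 0.0962). From 6 to 10 h only Nr0b2 was called, with a change of -3.39 ± 0.39. From 10 to 16 h 3 were lower, led by Ep300 (-1.33 ± 0.33), and from 3 to 16 h 1 was higher, Rdh16 (4.38 ± 0.99), and 17 were lower. Of all 28869 probe sets, 206 were called lower from 10 to 16 h and 2427 from 3 to 16 h. The median change from 3 to 16 h was -0.57 for the list and -0.42 over all probe sets. After quantile normalization 259 of all probe sets were called lower from 3 to 16 h.

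In the intravenous experiment 1 of 57 was called at 30 min, Egr1, an early response gene (1.44 ± 0.16). At 60 min 2 were higher, Nr0b2 (2.35 ± 0.33) and Cyp2c22 (1.28 ± 0.16). At 90 min 5 were higher and 1 lower, among them Nr0b2 (1.96 ± 0.33), Cyp2c22 (1.81 ± 0.16), Rarb (1.45 ± 0.18) and Adh4, an alcohol dehydrogenase (-1.32 ± 0.27). Among the 22763 probe sets tested, 19, 50 and 76 were called higher at 30, 60 and 90 min, and 1, 38 and 39 lower. Both members were called at 60 min, where the change of Rarb was 0.40 ± 0.18 (adjusted p = 0.47).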

How the data were processed

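The deposited table holds log2 signals, made with GCOS per the submitters' processing notes, of 31099 probe sets on 47 arrays. In each column the median is 0 and the lowest values share 1 floor. The settings and how the floor arose are not given in the sources used here. No logarithm was applied. The 57 control probe sets were left out. A probe set entered an experiment's fit if it exceeded percentile 40 of the array on 2 or more arrays there (27595, 28869 and 22763). Separate fits per experiment used limma 3.58.1 under R 4.3.3 (lmFit on group means, eBayes with an intensity trend), with, for the diets, the run of database identifiers as a covariate (12 and 8 arrays). The pipeline was also run on simulated data with independent noise, with no floor, run effect or arrays that stood apart. That run does not bear on these features, and its outcome is not reported here.

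Groups came from the sample labels. The members and the lists of genes and markers were chosen with earlier results of these data known. The named genes are the members, the 10 genes most like each by correlation, and up to 4 called retinoid genes per comparison. Those beyond this rule (the 2 genes above the members in rank, Xist, Cyp2c12, and Rarb and Dhrs3 where not called) were chosen after their values were seen. Same-numbered rats did not deviate together (r from -0.09 to 0.15 in the diet experiment, -0.04 to 0.06 in the time course and -0.01 to 0.02 in the intravenous experiment), so numbers were not used as pairs.

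Alternatives were quantile normalization, no filter, no trend, a common floor, the replicate block, the run as a random block, left out as covariate, or each run by itself, the other Cyp26b1 probe set, the mean of both, and each array left out. Leaving out the arrays that stood apart was chosen after seeing the data. The number of arrays limits the precision.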

Additional observations from a re-analysis of the deposited data

Results flagged for a closer look

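Cyp26a1 on adequate replicate 1 had a signal of 1.26, while the other 5 adequate arrays lay between 0.08 and 0.41. Its gap to the nearest array was 0.719 of the range of the group, above the limit of 0.625 for 6 arrays. It was 1 of 12 tests (3 probe sets in each of 4 groups), and since chance gives about 1 in 20, a single such value is near what chance gives.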

How the results depend on the processing

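Without the intensity trend the values do not change, but calls of Cyp26a1 were lost in deficient livers (-1.94), at 3, 6 and 10 h (6.30, 8.67 and 6.29) and at 60 min (5.43) and from 3 to 16 h (-3.43), and of Cyp26b1 at 6, 10 and 16 h (5.35, 6.23 and 2.84), from 10 to 16 h (-3.39) and from 30 to 60 min (2.06). The replicate block, although the numbers do not pair the rats, gave Cyp26a1 -2.01 in deficient against adequate livers (adjusted p = 0.0545), 3.96 in supplemented against adequate (adjusted p = 1) and 5.97 in supplemented against deficient (adjusted p = 0.106), all lost calls, and turned Cyp26b1 in marginal against deficient livers to -0.078. Within the first and second run Cyp26a1 in deficient livers was -1.09 and -2.84, neither called. Quantile normalization ended the 16 h call of Cyp26b1 (3.02) and the call of Cyp26a1 from 3 to 16 h (-3.14). The mean over both probe sets ended the Cyp26b1 calls at 16 h (1.90), at 60 min (2.08), from 30 to 60 min (1.00) and from 10 to 16 h (-2.41). The second Cyp26b1 probe set gave 2.86, 2.39 and 0.96 at 6, 10 and 16 h and 1.39 and 3.91 at 60 and 90 min, none called, nor the step from 10 to 16 h (-1.42), and turned those from 6 to 10 h (-0.48) and 30 to 60 min (-0.064). Without the arrays that stood apart, chosen after seeing the data, Cyp26a1 at 16 h (6.41) and from 6 to 10 h (-2.38) was called and its changes from 10 h (0.12) and 3 h (0.12) turned, Cyp26b1 at 3 h was called (3.36), its fall from 10 to 16 h was lost (-1.49) and its change from 3 to 16 h turned (1.39). The causes were not tested. The number of probe sets called depended on the trend: without it 64 in place of 299 were called in deficient against adequate livers, 0, 5, 2 and 40 in place of 22, 58, 141 and 1765 at 3, 6, 10 and 16 h, and 1, 2 and 28 in place of 20, 88 and 115 at 30, 60 and 90 min. Quantile normalization called 141 at 6 h, 290 at 10 h and 323 at 16 h, and leaving out the arrays that stood apart gave 86 in deficient livers and 46, 132, 457 and 127 at 3, 6, 10 and 16 h.

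Leaving out each array in turn gave ranges of -2.31 to -1.55 for Cyp26a1 in deficient and 3.87 to 4.84 in supplemented against adequate livers, 1.09 to 4.52 at 16 h, 1.79 to 4.32 at 30 min and -0.15 to 0.47 from 60 to 90 min. For Cyp26b1 they were -0.27 to 0.67 in marginal against deficient livers, 1.74 to 4.44 at 3 h, 1.23 to 3.93 at 16 h and -1.47 to 0.34 from 3 to 16 h. The excess of the Cyp26a1 over the Cyp26b1 change ranged from -0.73 to 0.57 (deficient), 2.17 to 3.14 (supplemented), -0.30 to 3.76 (time course) and 1.34 to 3.44 (intravenous). Filtering, a common floor, dropping the run covariate and the run as a random block changed no call of the members. Precision is limited by 2 to 7 arrays per group, and signals near the floor give only a bound.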
